A study of Rattus norvegicus with 32 samples.

Results

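The subject is the hypothalamus of sham-operated rats after a single ozone exposure, compared with the hypothalamus of sham-operated rats that breathed filtered air. It covers 8 of the 32 libraries of the series, chosen by the sample labels alone: 4 libraries labelled sham, ozone (numbers 17 to 20) and 4 labelled sham, air (numbers 1 to 4). All rats were of the inbred Wistar Kyoto strain, which has normal blood pressure, and were 13 weeks old. Both groups had undergone a sham operation, so both kept their adrenal glands. Exposure lasted 4 hours, to filtered air or to ozone at 0.8 ppm over the whole body, and the tissue was frozen straight afterwards. The other hypothalamus libraries, from adrenalectomized (ADREX) rats breathing air or ozone, and the brainstem libraries of the sham rats are used only where the sham hypothalamus is set against them. The tissue is whole hypothalamus, so each value is an average over neurons, glia and vessels, and no source used here says whether 1 library is 1 animal.

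The hypothalamus heads the hypothalamus-pituitary-adrenal axis: its Crh neurons drive pituitary corticotropin, which makes the adrenal cortex release glucocorticoid, chiefly corticosterone in the rat. Glucocorticoid enters the brain, binds the glucocorticoid receptor (Nr3c1) in nearly all cell types, and the receptor then moves to the nucleus and raises or lowers the transcription of target genes. Typical targets include the receptor's own co-chaperone Fkbp5, the anti-inflammatory leucine-zipper protein Tsc22d3, and genes of lipid handling and growth arrest.

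Values are the authors' normalized read counts, and a difference is given as log2 ozone minus log2 air of (value + 1) with its standard error, so that a difference of 1 is close to a doubling and the change of low genes is understated. Sham hypothalamus libraries held 6.48 to 8.75 M reads and had reads on 17641 to 18344 genes. The regional markers of the hypothalamus matched the label. They summed to 446 to 738 reads per M reads (RPM) in the 8 libraries against 10.6 to 24.6 RPM in the 16 brainstem libraries, while the 16 Hox genes that mark the brainstem summed to 0 to 2.75 RPM against 81.5 to 211 RPM. Ozone 17 stood apart on red blood cell transcripts, which summed to 575 RPM in it and to 122 to 186 RPM in the other sham hypothalamus libraries. Air 2 and ozone 18 stood apart on liver transcripts: a list of 20 summed to 5320 and 3951 RPM in them and to 727 to 1075 RPM in the other 6. The complement gene C3, which the liver also makes, read 3659 and 4126 in them against 192 to 454. With 1 such library in each group, results are also given without the liver-rich libraries, which are these 2 and ADREX air 68, the hypothalamus libraries above 2000 RPM on that list. Leaving them out did not even out liver transcripts between the groups. The median log2 difference of 19 tested liver transcripts was 1.13 with all libraries and 1.67 without the liver-rich ones. In the other 6 libraries albumin (Alb) read 99.9, 74.3 and 43.7 in air and 1130, 290 and 111 in ozone.

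Ozone changed 230 of 14483 tested genes, 1.59% of them, in the sham hypothalamus (limma, Benjamini-Hochberg adjusted p under 0.05). Of these, 137 rose (0.946% of the genes tested) and 93 fell (0.642%). The rises were the larger changes: 47 called genes were at least 2-fold higher and 7 at least 2-fold lower. The median log2 difference of all tested genes was −0.00, and 49.0% of them were above 0. In 225 of the 230 the ozone and air libraries did not overlap, against 9.62% of all tested genes that were separated in this way. The calls rest on the same libraries and select for such separation, so it is not added evidence. The largest rises included known glucocorticoid targets and lipid-storage genes, and the largest falls included Cd180, Gbp2, Rasgrp3 and Slco1c1. Leaving out 1 library left fewer calls: 120 without air 1, 158 without air 2, 124 without air 3, 129 without air 4, 115 without ozone 17, 220 without ozone 18, 171 without ozone 19 and 134 without ozone 20. Without the liver-rich libraries 164 genes were called, 134 of them among the 230, and DESeq2 called 412 and limma with sample weights 886. All 230 kept their sign under each of the 19 alternatives in which they were tested, and 90 were called in all 8 fits that left out a library. In the 225 with separate groups, leaving out a library or changing the pseudocount cannot reverse the sign, so the kept signs say little. All p-values rest on how far these libraries vary among themselves, and part of that variation could be technical.

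**Figure D1:**
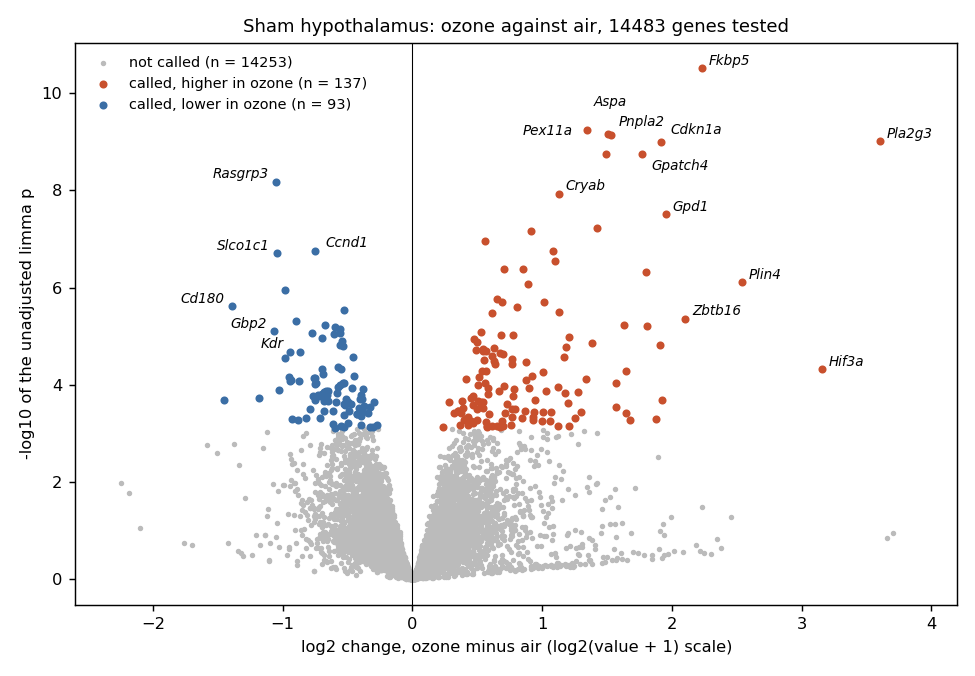
Each point is 1 of 14483 genes in the sham hypothalamus, with the log2 difference between ozone and air on the horizontal axis and −log10 of the unadjusted limma p on the vertical axis. Fkbp5 has the smallest p, Pla2g3 the largest called rise among the labelled genes, and the 137 called rises reach farther from 0 than the 93 called falls.

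Of 40 tested glucocorticoid-responsive genes 13 rose, none fell and 27 did not pass. The share called was 32.5%, against 1.59% of all genes tested, and 35 of the 40 differences were above 0. Their median was 0.57. The list was written from general knowledge with earlier results of these data known, so its direction is not independent evidence. The lists share members, so their counts are not separate results. Of the 13 rises, Fkbp5, Klf9, Hif3a, Ddit4, Mt2A, Cdkn1a, Plin4 and Pla2g3 are counted again in other lists.

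Fkbp5, the co-chaperone that lowers the receptor's affinity for hormone, had normalized read counts of 217, 342, 232 and 209 in air 1 to 4 and of 1363, 947, 1209 and 1126 in ozone 17 to 20. Every ozone library exceeded the highest air library, and the 2 liver-rich libraries were the closest pair. The mean went from 250 ± 62.2 (SD, n = 4) to 1162 ± 173 (SD, n = 4), a log2 difference of 2.23 ± 0.14 (SE; limma adjusted p = 4.47e-07). Zbtb16, a zinc-finger transcription factor also called PLZF, read 32.5, 82.4, 36.7 and 37.5 in air and 229, 98.1, 278 and 215 in ozone. The groups came close only at air 2 and ozone 18, where liver transcripts were abundant. The difference was 2.10 ± 0.31 (limma adjusted p = 0.00196), and 2.72 without the liver-rich libraries. Tsc22d3, known as GILZ, was already abundant in air, at 1372, 1505, 1138 and 1385, and reached 2456, 1918, 1972 and 1980 in ozone. The groups were again separate, with a smaller log2 difference of 0.62 ± 0.10 (limma adjusted p = 0.00454).

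Hif3a encodes an alpha subunit of the hypoxia-inducible factors, some forms of which oppose the other subunits. It was close to the filter in air, at 10.8, 15.3, 7.53 and 8.03, and read 125, 48.1, 153 and 97.5 in ozone. That 3.15 ± 0.58 difference (limma adjusted p = 0.00883) had the largest standard error of the large rises. Ozone 18 was far below the other ozone libraries. The standard error comes from a fit to all hypothalamus groups, and the part of ozone 18 in it was not tested. Cdkn1a, the cyclin-dependent kinase inhibitor p21, read 296, 288, 231 and 220 in air and 950, 942, 1110 and 904 in ozone. Here the ozone libraries were nearly level, and the difference was 1.92 ± 0.16 (limma adjusted p = 2.42e-06). Tfcp2l1, a transcription factor of epithelia and stem cells, rose by 1.18 ± 0.20 (limma adjusted p = 0.00434), from 43.05 ± 10.9 to 97.0 ± 12.9 (SD, n = 4 each).

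Other members of the list moved less or less firmly. Klf9, a Krüppel-like repressor, rose from 645 ± 30.6 to 952 ± 179 (SD, n = 4 each), or by 0.54 ± 0.12 (limma adjusted p = 0.0224). Its call was lost in every fit that left out a library other than ozone 18, with limma adjusted p of 0.0503 to 0.0836 (9.10e-05 to 0.0836 over 19 alternatives). Bcl6, a transcriptional repressor, rose by 0.78 ± 0.16 (limma adjusted p = 0.0156), and lost its call without air 2, air 3, ozone 17 or ozone 19 (0.0546 to 0.0669, and 0.000316 to 0.0721 over 19 alternatives). Ddit4, an inhibitor of mTORC1 signalling, rose by 0.67 ± 0.16 (limma adjusted p = 0.0473) although its groups overlapped, with ozone 18 at 262 and air 1 at 296. That call held only without air 1 or without ozone 18, and was otherwise lost on leaving out a library (0.0806 to 0.157, and 0.00121 to 0.157 over 19 alternatives).

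2 classical targets did not pass the test. Sgk1, a kinase that regulates ion transport, read 830, 302, 292 and 490 in air and 1244, 476, 1494 and 932 in ozone. The groups overlapped, and the difference of 1.13 ± 0.34 had a limma adjusted p of 0.133 (0.0224 without ozone 18, and 0.00692 to 0.351 over 19 alternatives). Per1, a clock gene with glucocorticoid response elements, differed by 0.60 ± 0.21 (limma adjusted p = 0.211), with 171 to 337 in air and 253 to 457 in ozone. Among 20 tested clock genes 1 was called, the repressor Ciart, which rose by 0.94 ± 0.20 from 34.5 ± 7.71 (limma adjusted p = 0.0216). Its call was lost without air 2, air 3, air 4, ozone 17, ozone 19 or ozone 20 (0.0508 to 0.0831, and 0.00104 to 0.0831 over 19 alternatives).

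The receptor itself was not among the called genes. Nr3c1 read 1350, 1450, 1145 and 1221 in air and 842, 1224, 881 and 947 in ozone. Ozone 18 lay within the air range and the other ozone libraries lay below it. The difference was −0.42 ± 0.13, with a limma adjusted p of 0.166 (0.046 without ozone 18, and 0.00478 to 0.388 over 19 alternatives). Nr3c2, the mineralocorticoid receptor, differed by 0.19 ± 0.20, and Hsd11b1, which regenerates corticosterone from its inactive form, by −0.04 ± 0.20 (95% interval −0.46 to 0.39). Of the 17 tested genes for the receptor, its co-chaperones and steroid handling, Fkbp5 alone was called, and the list median was −0.10.

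**Figure D2:**
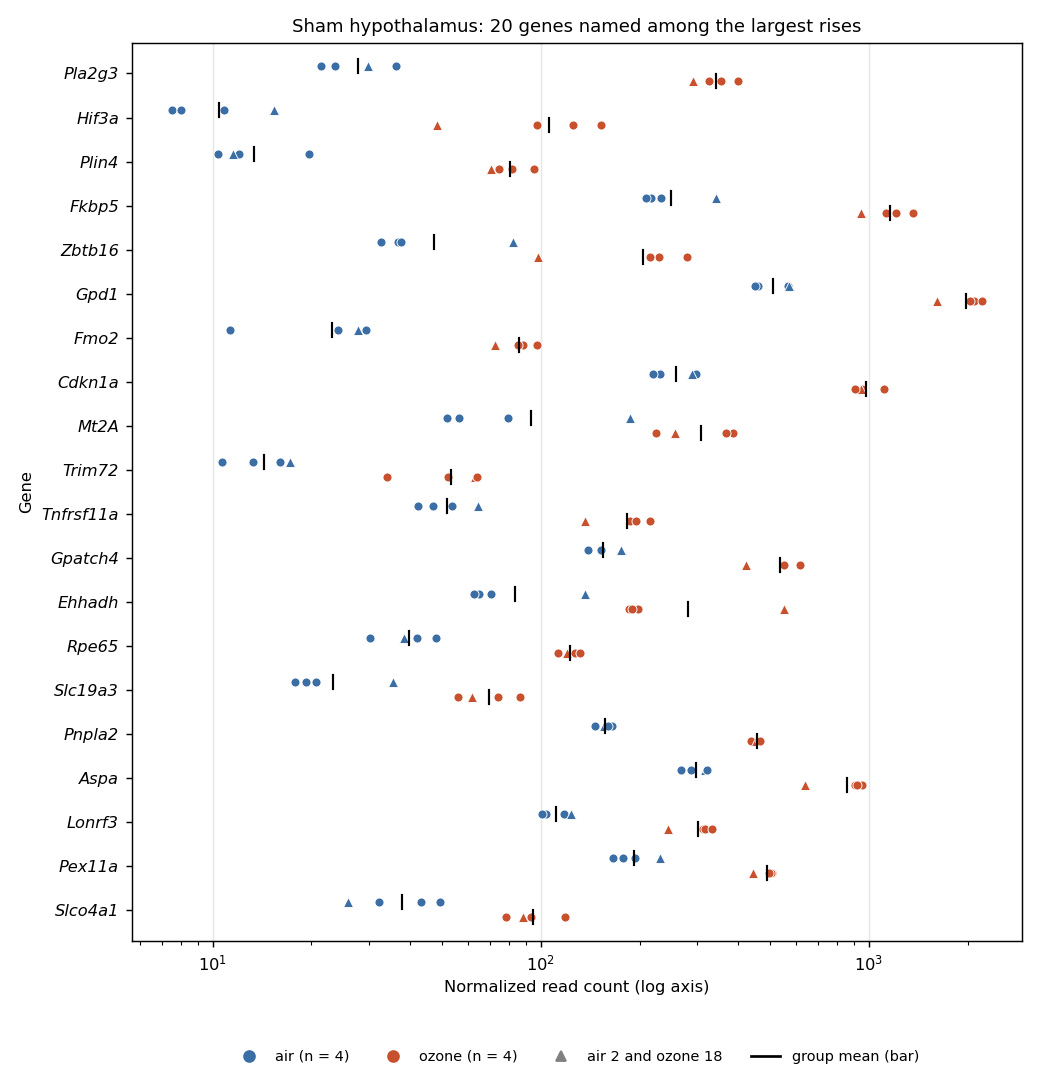
Normalized read counts (log axis) in each sham hypothalamus library for the 20 genes with the largest called rises under the naming rule. Circles are libraries, triangles are air 2 and ozone 18, and bars are group means. Blue (air) and orange (ozone) points are separate in all 20 genes, and the gap between them is narrowest at the triangles for Zbtb16.

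A glucocorticoid response element is a short palindrome read by the receptor, and it was searched for in promoters because 13 list members rose. The search used GNACA, 3 bases of any kind, then TGTNC, on both strands, the motif being its own reverse complement. Promoters are RefSeq's, build GRCr8, from 250 bases before to 50 bases after each start, and were matched by symbol or by a unique older symbol. A match was held by 30 of 10775 tested genes that have a promoter there (0.278%), against 1 of 112 risen genes (0.893%) and 0 of 72 fallen genes. The single risen gene was Kcna5, a voltage-gated potassium channel subunit, named because it held the match. Its stretch chr4:161043843-161043942, minus strand, is printed 5′ to 3′ with the match, which lies 89 to 77 bases before the start, in capitals.
Kcna5: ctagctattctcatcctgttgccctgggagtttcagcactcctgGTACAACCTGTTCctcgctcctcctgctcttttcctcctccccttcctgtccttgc
Kcna5 itself read 55.4, 53.7, 52.7 and 59.7 in air and 112, 141, 110 and 90.4 in ozone. The groups were separate and the difference was 1.01 ± 0.22 (limma adjusted p = 0.0293). The call was lost in every fit that left out a library other than ozone 20 (0.0644 to 0.0922, and 0.00151 to 0.0922 over 19 alternatives). A match is a description of letters in a short window, and none was found in the windows of Fkbp5, Plin4 or Pnpla2. Of 137 risen genes 112 had a promoter to search. Pla2g3, Gpd1 and Zbtb16 had none and were not searched.

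Of 29 tested genes for lipid droplets, lipases and fatty acid oxidation 4 rose and none fell, with a median of 0.17. The share called was 13.8%, against 1.59% of all genes tested, and Plin4 is also among the glucocorticoid-responsive rises. Plin4, a perilipin that coats lipid droplets, read 12.03, 11.5, 10.3 and 19.6 in air and 74.8, 70.7, 81.8 and 95.5 in ozone. No ozone library was under 3 times the highest air library, and the difference was 2.54 ± 0.33 (limma adjusted p = 0.000518). Pnpla2, the lipase ATGL that starts triglyceride breakdown on droplets, had little spread within either group. It read 165, 156, 160 and 146 in air and 437, 452, 466 and 465 in ozone, a difference of 1.53 ± 0.12 (limma adjusted p = 2.42e-06). A second entry, LOC100911615, moved with it at 0.685 to 0.774 of the Pnpla2 value in every library, so reads of the pair may be split between near-identical copies and both values are uncertain.

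Pex11a and Ehhadh act in peroxisomes, and both were called. Pex11a, which promotes division of peroxisomes, read 194, 231, 178 and 166 in air and 506, 444, 504 and 495 in ozone. Each ozone value was close to the others, and the difference was 1.35 ± 0.11 (limma adjusted p = 2.42e-06). Ehhadh, an enzyme of peroxisomal fatty acid oxidation that the liver makes in quantity, read 64.98, 136, 70.6 and 62.4 in air and 185, 553, 198 and 190 in ozone. Its highest library in each group was the liver-rich one. The difference was 1.64 ± 0.37 (limma adjusted p = 0.0308) with all libraries and 1.52 without the liver-rich ones (limma adjusted p = 0.00745). Leaving out air 1, air 3, air 4, ozone 17, ozone 18 or ozone 20 ended the call (0.053 to 0.113, and 0.000561 to 0.113 over 19 alternatives). Acsl3, which activates fatty acids for droplet growth, rose by only 0.35 ± 0.08, from 2623 ± 52.5 to 3358 ± 222 (SD, n = 4 each; limma adjusted p = 0.0291). Its call was lost in every fit that left out a library other than ozone 18 (0.0615 to 0.0969, and 0.000919 to 0.212 over 19 alternatives).

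Pla2g3, a secreted phospholipase A2 that frees fatty acids from membrane lipids, had the largest rise that met the naming rule. It read 36.1, 29.7, 23.5 and 21.4 in air and 326, 291, 399 and 353 in ozone. The lowest ozone library was many times the highest air library, and the difference was 3.60 ± 0.29 (limma adjusted p = 2.42e-06). Among 22 tested genes for elongation, desaturation and phospholipases it was the only rise, and the elongase Elovl7 was the only fall, from 151 ± 17.8 to 75.8 ± 7.68 (SD, n = 4 each) or by −0.98 ± 0.13 (limma adjusted p = 0.000679). Insig1, which holds back activation of cholesterol-synthesis genes, rose by 0.61 ± 0.09 (limma adjusted p = 0.00154) and was the single call among 21 tested genes of that pathway. Adipor2, a receptor for adiponectin, rose by 0.62 ± 0.11 (limma adjusted p = 0.00652) and was chosen after its values were seen.

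Gpd1, cytosolic glycerol-3-phosphate dehydrogenase, makes the glycerol backbone of triglycerides and carries reducing equivalents toward mitochondria. It read 567, 571, 459 and 449 in air and 2083, 1606, 2209 and 2025 in ozone. All ozone libraries lay far above the air range, with a difference of 1.95 ± 0.20 (limma adjusted p = 4.11e-05). Gpd2, the mitochondrial enzyme of the same shuttle and chosen after its values were seen, went the other way by a small amount. It read 588, 597, 575 and 614 in air and 475, 476, 460 and 477 in ozone. The groups were narrow and separate, but the difference of −0.33 ± 0.08 (limma adjusted p = 0.0473) lost its call in all 8 fits that left out a library (0.076 to 0.151, and 0.0018 to 0.151 over 19 alternatives).

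Mt2A, a metallothionein that binds zinc and copper, read 79.4, 187, 51.7 and 56.2 in air and 224, 257, 386 and 366 in ozone. Air 2 was the highest air library. The difference was 1.88 ± 0.44 (limma adjusted p = 0.0376), and 2.35 without the liver-rich libraries (limma adjusted p = 0.00273). Leaving out any single library other than air 2 ended the call (0.0516 to 0.137, and 0.000726 to 0.137 over 19 alternatives). Its relative Mt1, chosen after its values were seen, read 57.8, 241, 47.0 and 30.3 in air and 218, 259, 266 and 269 in ozone. Air 2 was inside the ozone range, and the difference of 1.90 ± 0.55 did not pass (limma adjusted p = 0.106, and 0.00997 without air 2; 0.00126 to 0.311 over 19 alternatives).

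Cryab, the small heat-shock protein alpha-B crystallin, read 505, 406, 527 and 441 in air and 1032, 1068, 971 and 1017 in ozone. The groups were separate by a wide margin, and the difference was 1.13 ± 0.11 (limma adjusted p = 1.73e-05). It was 1 of 2 rises among 19 tested chaperones, whose median was −0.00. Slc19a3, a thiamine transporter, rose by 1.57 ± 0.34 (limma adjusted p = 0.0262), with 17.8 to 35.5 in air and 55.9 to 86.4 in ozone. That call was lost without air 1, air 3, air 4, ozone 17, ozone 19 or ozone 20 (0.0536 to 0.0964, and 4.82e-05 to 0.0964 over 19 alternatives). Slco4a1, an organic anion transporter, rose by 1.33 ± 0.26 (limma adjusted p = 0.0122). Fmo2, a flavin-containing monooxygenase, read 11.3 to 29.4 in air and 72.6 to 97.5 in ozone, a difference of 1.92 ± 0.41 (limma adjusted p = 0.0216). Its call ended without air 1, air 3, ozone 17, ozone 19 or ozone 20 (0.0558 to 0.0842, and 0.000639 to 0.0842 over 19 alternatives).

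The remaining large rises had diverse roles and each kept its call in all 8 fits that left out a library. Tnfrsf11a, the receptor RANK, rose by 1.80 ± 0.23 (limma adjusted p = 0.000325), from 51.7 ± 9.49 to 183 ± 33.6 (SD, n = 4 each). Gpatch4, a G-patch domain protein, rose by 1.77 ± 0.15 (limma adjusted p = 3.28e-06), with 139 to 175 in air and 422 to 617 in ozone. Trim72, known as a membrane-repair protein of muscle, rose by 1.80 ± 0.28 (limma adjusted p = 0.00244) from a low mean of 14.3 ± 2.92 (SD, n = 4). Rpe65, the retinoid isomerase of the retinal pigment epithelium, rose by 1.63 ± 0.25 (limma adjusted p = 0.0024), and its air values of 30.1 to 48.0 lay well under the ozone values of 113 to 132. Lonrf3, a LON and RING-finger protein, rose by 1.42 ± 0.15 (limma adjusted p = 7.18e-05). Osmr, the receptor subunit for oncostatin M, rose by 1.38 ± 0.23 (limma adjusted p = 0.00388) and was the only call among 22 tested genes for cytokine receptors, Stat3 signalling and the acute phase. Sesn1, a sestrin and p53 target, rose by 0.65 ± 0.09 (limma adjusted p = 0.00102).

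Ccnd1, which encodes cyclin D1 and drives entry into the cell cycle, fell while the inhibitor Cdkn1a rose. It read 345, 340, 312 and 337 in air and 193, 191, 188 and 219 in ozone. The groups were tight and separate, and the difference was −0.75 ± 0.09 (limma adjusted p = 0.000159). Cdkn1a, Sesn1 and Ccnd1 were the only calls among 23 tested genes of the cell cycle and p53 response, whose median was 0.05.

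Genes of the vessel wall and the blood-brain barrier held several of the falls. Of 44 tested members 5 fell and 1 rose, 13.6% of the list against 1.59% of all genes tested, and the median was −0.06. Differences were below 0 in 26 members and above 0 in 18. Without the liver-rich libraries 4 fell and 2 rose. In bulk tissue fewer endothelial cells and less RNA per cell cannot be told apart. The summed endothelial list was 2740 to 2784 RPM in air, 2666 to 2800 RPM in ozone 17, 19 and 20, and 3033 RPM in the liver-rich ozone 18, and its part in these results was not tested. Slco1c1, which carries thyroxine across the barrier, read 677, 657, 719 and 683 in air and 280, 382, 317 and 352 in ozone. Each ozone library was well under the air range, a difference of −1.05 ± 0.12 (limma adjusted p = 0.00017). Kdr, the receptor VEGFR2 for vascular endothelial growth factor, read 297, 209, 285 and 254 in air and 115, 176, 123 and 131 in ozone. The liver-rich libraries were again the closest pair, and the difference was −0.94 ± 0.16 (limma adjusted p = 0.00486), or −1.17 without them. Emcn, the endothelial sialoprotein endomucin, fell by −0.98 ± 0.17 (limma adjusted p = 0.00581), from 102 ± 21.4 to 50.3 ± 4.79 (SD, n = 4 each).

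Mfsd2a, which moves lysophospholipids carrying omega-3 fatty acids into the brain, was the list's single rise. It read 239, 252, 189 and 198 in air and 456, 386, 648 and 514 in ozone. The groups were separate, and the difference was 1.17 ± 0.20 (limma adjusted p = 0.00573). Other receptors and surface proteins known from endothelium fell as well, chosen after their values were seen: Nrp1, a co-receptor of VEGFR2, by −0.67 ± 0.10 (limma adjusted p = 0.0024), the sphingosine-1-phosphate receptor S1pr1 by −0.60 ± 0.10 (limma adjusted p = 0.00297), the sialomucin Podxl by −0.54 ± 0.09 (limma adjusted p = 0.00365) and the integrin Itga6 by −0.53 ± 0.08 (limma adjusted p = 0.00138). Each of those kept its call on leaving out any single library. Being picked as falls, they do not show which way such genes moved as a group. Tm4sf1, a tetraspan surface protein, fell by −0.88 ± 0.17 (limma adjusted p = 0.0125) and lost its call without air 3 (0.0534, and 0.000851 to 0.0534 over 19 alternatives), and without the liver-rich libraries its limma adjusted p was 0.0525. Hr, a co-repressor for thyroid hormone receptors, rose by 0.63 ± 0.11 (limma adjusted p = 0.00723), so that Hr and Klf9 rose and Slco1c1 fell among 15 tested genes of thyroid hormone handling.

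**Figure D3:**
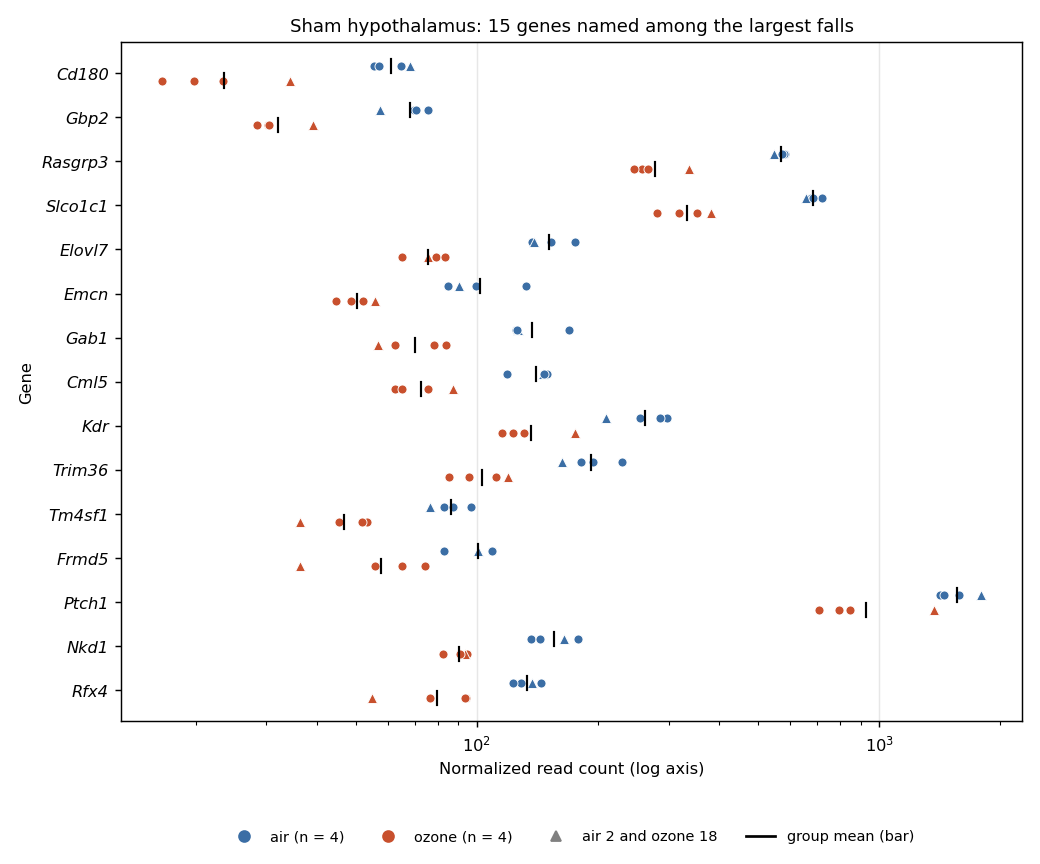
Normalized read counts (log axis) in each sham hypothalamus library for the 15 genes with the largest called falls under the naming rule. Circles are libraries, triangles are air 2 and ozone 18, and bars are group means. Orange (ozone) points lie under the blue (air) points in all 15 genes, with ozone 18 at the upper edge of its group for Rasgrp3, Kdr and Ptch1.

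Of 31 tested Toll-like receptor, microglial and complement genes 1 fell and 30 did not pass. Cd180, a Toll-like receptor relative found on B cells and microglia, read 55.4, 68.04, 64.9 and 57.1 in air and 19.9, 34.4, 16.5 and 23.4 in ozone. No ozone library reached the air range, and the difference of −1.39 ± 0.20 (limma adjusted p = 0.00124) was the largest fall of a named gene. The list median was −0.07, and 14 of the 31 differences were above 0. The most positive was that of the complement gene C1qb, at 0.68, which was not called. Summed without C3 and C4b, complement genes that the liver also makes, the list came to 395 to 442 RPM in air and 375 to 439 RPM in ozone. Both were left out after their values were seen. Sall1, a transcription factor of microglia and chosen after its values were seen, fell by −0.56 ± 0.09 (limma adjusted p = 0.00406). Gbp2, an interferon-induced guanylate-binding protein, read 75.8, 57.5, 69.6 and 70.4 in air and 30.3, 39.3, 28.5 and 30.5 in ozone. Its groups were separate, with a difference of −1.07 ± 0.17 (limma adjusted p = 0.00287). Gbp2 was the only call among 27 tested interferon-responsive and antigen-presentation genes, of which 6 differed above 0, and their median was −0.17.

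Among 28 tested MAP kinase phosphatases, feedback inhibitors and exchange factors 1 fell and 27 did not pass. Rasgrp3, the member that fell, an exchange factor that activates Ras and Rap, read 584, 546, 579 and 572 in air and 257, 337, 246 and 266 in ozone. Air libraries were almost level and all ozone libraries lay far below them, a difference of −1.05 ± 0.10 (limma adjusted p = 1.08e-05). Outside that list, Nkd1, a feedback inhibitor of Wnt signalling, fell by −0.77 ± 0.12 (limma adjusted p = 0.00295), and Trim36, a ubiquitin ligase, by −0.89 ± 0.13 (limma adjusted p = 0.00205). Cml5 fell by −0.95 ± 0.18 (limma adjusted p = 0.0125), with 119 to 149 in air and 62.5 to 87.4 in ozone. Gab1, an adaptor of growth factor receptors, fell by −0.95 ± 0.18 (limma adjusted p = 0.0113), and had a limma adjusted p of 0.0502 without air 1 and 0.0568 without the liver-rich libraries (0.000276 to 0.0568 over 19 alternatives).

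Ptch1, the Hedgehog receptor, read 1576, 1794, 1411 and 1444 in air and 793, 1369, 707 and 845 in ozone. Ozone 18 stood just under the air range, far from the other ozone libraries. The difference was −0.79 ± 0.17 (limma adjusted p = 0.0279), and every fit that left out a library other than ozone 18 lost the call (0.0581 to 0.105, and 0.000201 to 0.105 over 19 alternatives). Frmd5, a FERM-domain protein, fell by −0.82 ± 0.19 (limma adjusted p = 0.036) and Rfx4, a transcription factor of neural progenitors and glia, by −0.76 ± 0.16 (limma adjusted p = 0.0192). Frmd5 held its call only without ozone 19 (0.0503 to 0.119 on leaving out the others), and Rfx4 lost its call without air 1, air 2, air 4 or ozone 17 (0.0527 to 0.0726). Without the liver-rich libraries the limma adjusted p was 0.155 for Frmd5 and 0.0892 for Rfx4, the top of their ranges over 19 alternatives, which began at 0.00396 and 0.00118. P4ha1, a collagen prolyl hydroxylase and hypoxia target, fell by −0.75 ± 0.15 (limma adjusted p = 0.0134), and its p was 0.0543 without ozone 20 (0.000304 to 0.0543 over 19 alternatives). Adamts4, a protease of aggrecan in the extracellular matrix, fell by −0.56 ± 0.09 (limma adjusted p = 0.00295).

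Aspa, the oligodendrocyte enzyme aspartoacylase, which splits N-acetylaspartate into acetate and aspartate, read 267, 316, 286 and 321 in air and 950, 640, 906 and 921 in ozone. Only ozone 18 stood off from the other ozone libraries, and it was still far above the highest air library. The difference was 1.505 ± 0.12 (limma adjusted p = 2.42e-06). Among 25 tested oligodendrocyte genes 3 rose and 1 fell, and the median was 0.01. The other members called were Mal, a myelin proteolipid, at 0.28 ± 0.06 (limma adjusted p = 0.0224), Galnt6, a glycosyltransferase, at 0.77 ± 0.16 (limma adjusted p = 0.019), and Fa2h, which makes hydroxylated myelin lipids, at −0.37 ± 0.08 (limma adjusted p = 0.0248). Mal held its call only without air 2 or ozone 18 (0.056 to 0.0842 on leaving out the others), Fa2h only without air 2 or ozone 17 (0.0597 to 0.0975 on leaving out the others), and Galnt6 lost its call without air 2, air 3 or ozone 17 (0.051 to 0.0805). Over 19 alternatives the limma, edgeR or DESeq2 adjusted p ran from 0.000106 to 0.239 for Mal, 0.000615 to 0.0805 for Galnt6 and 0.00308 to 0.0975 for Fa2h. The summed oligodendrocyte list was 18318 to 20050 RPM in air and 19383 to 21412 RPM in ozone.

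Car2, the carbonic anhydrase of oligodendrocytes and chosen after its values were seen, fell by −0.56 ± 0.09 (limma adjusted p = 0.00268). Olig2, a lineage factor of oligodendrocytes, read 416, 345, 354 and 394 in air and 220, 187, 256 and 233 in ozone. The groups were separate, with a difference of −0.75 ± 0.16 (limma adjusted p = 0.0215), but the call held only without air 2 or ozone 19 (0.052 to 0.0746 on leaving out the others, and 0.000874 to 0.0746 over 19 alternatives). Without the liver-rich libraries its limma adjusted p was 0.0585. Of 21 tested astrocyte genes 2 rose. Mertk, a receptor kinase for engulfment of debris, rose by 0.77 ± 0.14 (limma adjusted p = 0.0062), from 235 ± 50.5 to 397 ± 40.1 (SD, n = 4 each). Gjb6, the gap junction protein connexin 30, rose by 0.73 ± 0.16 (limma adjusted p = 0.0239), and lost its call without air 1, air 3, air 4, ozone 17 or ozone 18 (0.064 to 0.0851, and 0.000516 to 0.0851 over 19 alternatives). Without the liver-rich libraries the limma adjusted p of Gjb6 was 0.0776.

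The peptide genes for which the hypothalamus is best known were not called. None of 18 tested stress-axis and magnocellular peptide and receptor genes passed, and their median was −0.11. Crh, which starts the stress axis, was low throughout, at 14.4, 17.3, 27.3 and 24.1 in air and 24.6, 15.7, 21.1 and 11.2 in ozone. The ranges of the groups overlapped in large part, and the difference was −0.20 ± 0.28 (95% interval −0.80 to 0.40). Avp, vasopressin, differed by −0.21 ± 0.31 (95% interval −0.86 to 0.44), and Oxt, oxytocin, by −0.29 ± 0.37 (95% interval −1.07 to 0.49). Pomc, the precursor of melanocortins, differed by −0.11 ± 0.31, and Npy by −0.26 ± 0.28. Agrp and Socs3 were under the mean of 10 and were not tested. The intervals of Crh, Avp and Oxt include falls as large as the rise of Tsc22d3.

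Among 25 tested feeding and arousal genes the neurotrophin Bdnf was the only call. It read 149, 150, 158 and 148 in air and 92.7, 116, 90.0 and 88.4 in ozone. Every ozone library lay under the narrow air range, with a difference of −0.65 ± 0.13 (limma adjusted p = 0.017). Leaving out air 1, air 3, ozone 17, ozone 19 or ozone 20 took its p to 0.0507 to 0.0623 (0.000494 to 0.0623 over 19 alternatives).

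Marks of acute neuronal activity and of oxidant stress were not called either. Of 26 tested immediate early genes none passed. Fos, the classical activity marker, read 130, 70.0, 132 and 108 in air and 61.5, 32.4, 98.3 and 53.8 in ozone, a difference of −0.89 ± 0.28. The groups overlapped, and its limma adjusted p was 0.147 (0.0419 without ozone 19, and 0.0344 to 0.362 over 19 alternatives). None of 28 tested NRF2 and antioxidant genes passed, and their median was −0.02. Hmox1, heme oxygenase 1, had 41.3 ± 5.56 in air and 42.7 ± 10.2 in ozone (SD, n = 4 each), a difference of 0.02 ± 0.19. Nfkbia, an inhibitor of NF-kappa-B that glucocorticoid can induce, differed by 0.50 ± 0.25 (limma adjusted p = 0.435). No member was called among 23 unfolded-protein-response genes, 29 glutamate, GABA and glycine receptors, 20 monoamine and acetylcholine genes, 15 neuron markers or 16 regional markers of the hypothalamus. Of the 16 regional markers 13 differed below 0, with a median of −0.15, or −0.03 without the liver-rich libraries. The summed regional list was 595 to 738 RPM in air and 446 to 710 RPM in ozone, lowest in ozone 18. In all, 15 of 37 lists had no called member. In 2 of these the median was nonetheless far above 0, at 0.68 for 14 choroid plexus genes and 1.13 for 19 liver transcripts, and the summed choroid list was 419 to 499 RPM in air and 343 to 593 RPM in ozone.

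**Figure D4:**
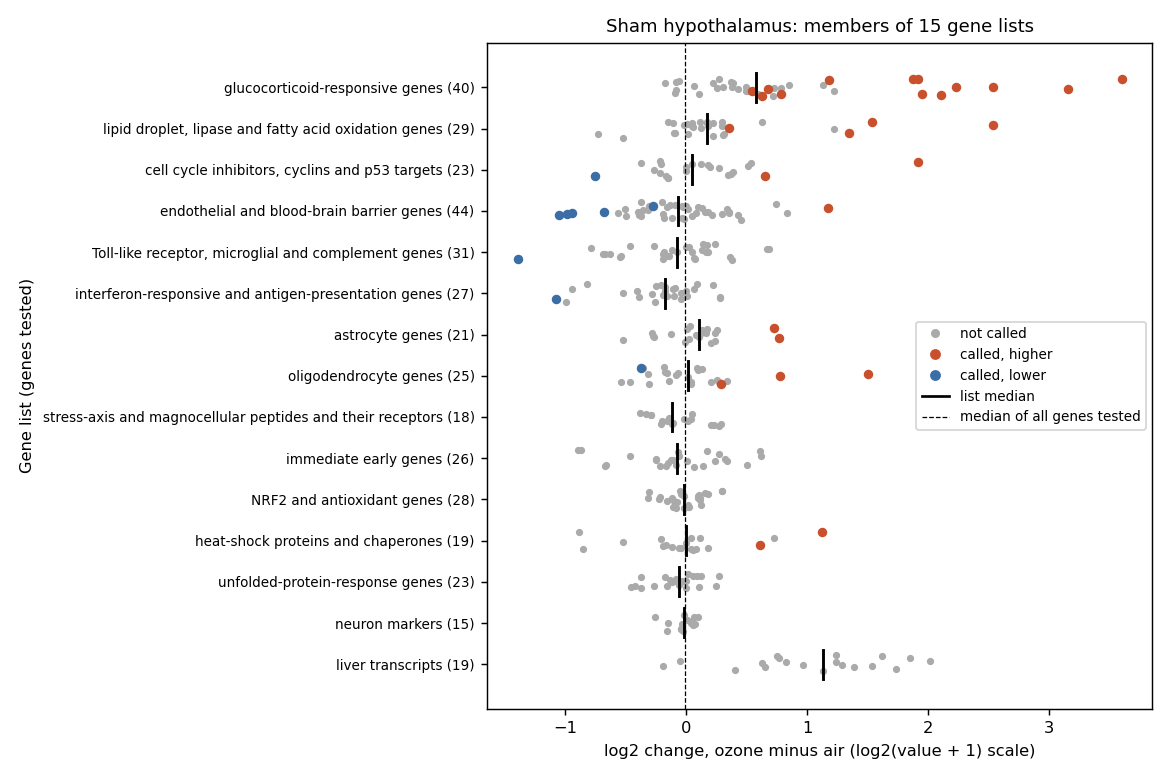
Log2 differences between ozone and air for the tested members of 15 gene lists in the sham hypothalamus, with the number tested in brackets. Coloured points are called genes, black bars are list medians and the dashed line is the median of all tested genes. The glucocorticoid-responsive list has 13 called rises and a median of 0.57, the endothelial list has calls on both sides, and the liver list is displaced to 1.13 with no call.

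Whether the response of the sham rats differed from that of rats without adrenal glands was tested by an interaction of exposure and operation across the 16 hypothalamus libraries. The difference passed for 20 of 14483 genes (0.138%), 17 with a more positive ozone effect in sham rats, and 19 of the 20 were also called in the sham comparison. Fkbp5 had the smallest p: it read 231, 247, 235 and 189 in ADREX air and 223, 211, 231 and 211 in ADREX ozone. Those groups overlapped fully, so that the sham effect exceeded the ADREX effect by 2.26 ± 0.20 on the log2 scale (limma adjusted p = 6.54e-05). Pnpla2 read 123, 142, 161 and 143 in ADREX air and 147, 136, 118 and 93.8 in ADREX ozone, a difference of effects of 1.75 ± 0.17 (limma adjusted p = 0.000125). For Cdkn1a the effects differed by 2.12 ± 0.22 (limma adjusted p = 0.000139) and for Pex11a by 1.38 ± 0.15 (limma adjusted p = 0.000178). Plin4 went from 17.1 ± 5.47 to 10.9 ± 7.17 in ADREX rats (SD, n = 4 each), and its effects differed by 3.25 ± 0.47 (limma adjusted p = 0.00405).

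The other genes past this test were LOC100911615, Gpatch4, Aspa, Rasgrp3, Pla2g3, Gpd1, Svil, Ston1, Lonrf3, Znf740, Gramd3, Ccnd1, Tnfrsf11a, Opalin and Sesn1, and all 20 are listed because they are few. Rasgrp3, at −0.99 ± 0.14 (limma adjusted p = 0.00305), Ccnd1 and Opalin had the more negative effect in sham rats. Opalin, a myelin membrane protein, was the gene not called in the sham comparison. It was lower with ozone in sham rats, by −0.35 ± 0.09 (limma adjusted p = 0.0571), and differed by 0.36 ± 0.09 the other way in ADREX rats. For 15 of the 20 the test held in all 16 fits that left out a library, and the exceptions were Gramd3, Ccnd1, Tnfrsf11a, Opalin and Sesn1. Gramd3 lost it without sham air 4, sham ozone 17, 19 or 20, or ADREX libraries 67, 81 or 82 (0.0538 to 0.0707). Ccnd1 lost it without sham libraries 1, 2, 4, 17 or 19 or ADREX libraries 66, 67, 68, 81 or 83 (0.0503 to 0.0735), and Tnfrsf11a without sham libraries 1, 3, 4, 17, 19 or 20 or ADREX libraries 82 or 83 (0.0515 to 0.0769). Opalin lost it without sham libraries 1, 2, 4, 19 or 20 or ADREX libraries 66, 68, 81 or 83 (0.0508 to 0.0859). Sesn1 kept it in 3 fits, without sham ozone 18 or ADREX libraries 65 or 81 (0.0649 to 0.143 in the others). Leaving out sham ozone 18 raised the count of such genes to 37, and 32 were found without the liver-rich libraries.

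**Figure D5:**
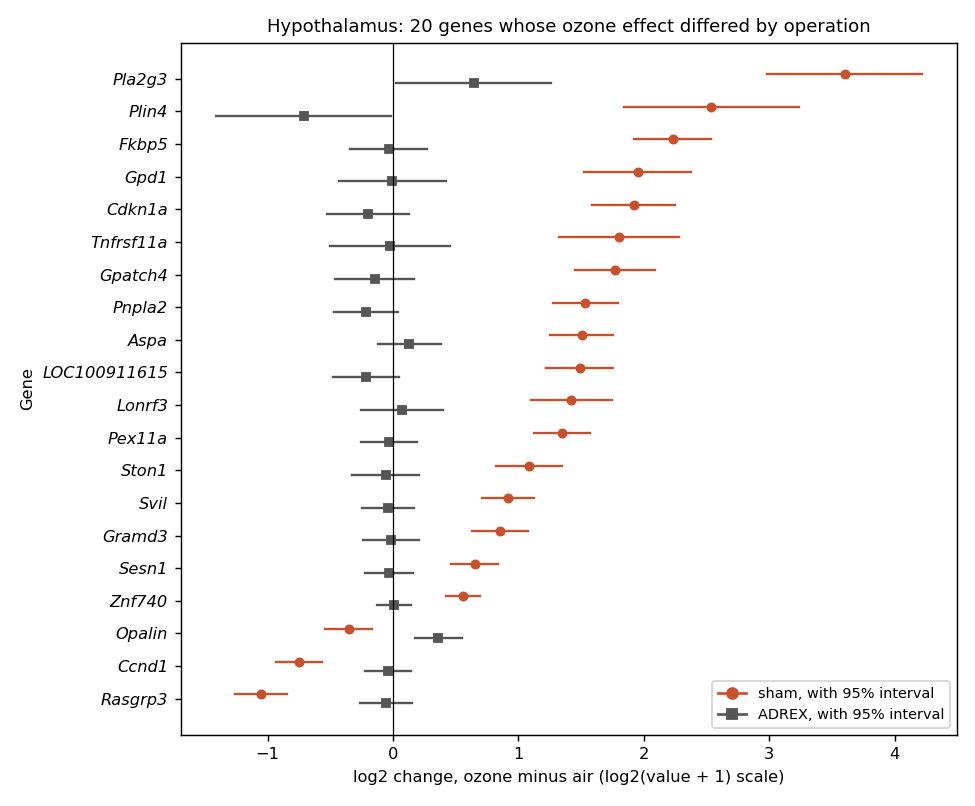
Log2 differences between ozone and air with 95% intervals for the 20 genes whose ozone effect differed between sham (circles) and ADREX (squares) hypothalamus. Sham intervals lie away from 0 in every gene shown, while the ADREX intervals exclude 0 in Pla2g3, Plin4 and Opalin and include it in the other genes.

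In the ADREX hypothalamus on its own ozone called 0 of 14483 genes (0% of those tested) with limma, edgeR and DESeq2 alike. The unadjusted limma p was under 0.05 for 1163 genes, more than the 0.05 share that chance gives where no gene differs. The smallest limma adjusted p was 0.586. The median of the glucocorticoid-responsive list was −0.03 there, against 0.57 in the sham rats. That list was written with earlier results of these data known, so the gap between the medians is not independent evidence. A gene past the threshold in sham rats and not in ADREX rats is not thereby shown to differ, and of the 230 called genes 19 passed the test of that difference.

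Set beside the sham brainstem, the hypothalamus showed no gene whose ozone effect passed the test of a difference (0 of 14533, 0%, limma and edgeR). DESeq2 called 2. The unadjusted limma p was under 0.05 for 416 genes. That is fewer than a 0.05 share of the genes tested, the share that chance gives where no gene differs. The fit did not pair libraries by number. Fkbp5 rose by 2.31 ± 0.14 in the brainstem, within 0.08 of its rise in the hypothalamus. Slco1c1 fell by −1.04 ± 0.12 there. Cdkn1a rose more in the brainstem, at 2.82 ± 0.19, and Pla2g3 less, at 2.18 ± 0.25, but neither of these differences, −0.91 ± 0.27 and 1.42 ± 0.35, passed across all genes. The p-values do not show that the tissues respond alike.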

How the data were processed

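RNA from hypothalamus and brainstem was made into mRNA libraries with PrepX reagents and sequenced on an Illumina NextSeq 500, per the labels' protocols. The authors deposited a signal for 22587 genes in 32 libraries: read counts per gene, normalized by library. The submitters' processing notes name Partek, DESeq2 and the rat build rn6, with no versions or roles. Aligner, annotation and the treatment of reads shared by near-identical genes are not given in the sources used for this work. Each deposited column was whole multiples of a single step, 0.623 to 1.25, so whole reads were recovered for 100% of values (within 0.001).

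Values entered as log2(value + 1), and a gene was left out where its mean over a fit's libraries was under 10. limma 3.58.1 (R 4.3.3, trended prior) was fitted to the 16 hypothalamus libraries with 4 group means, or to all 32 with 8 for the contrast between tissues, with Benjamini-Hochberg adjustment over all genes tested. A call is an adjusted p under 0.05. The limma fit of the sham comparison was also run on simulated counts with a single dispersion for all genes and no outlying library. That run does not measure error rates in these data. Other settings tried were a pseudocount of 0.5 or 5, a minimum mean of 50 or none, median-of-ratios or quantile scaling, sample weights, edgeR 4.0.16 and DESeq2 1.42.0 on the recovered reads, the compared groups only, each library left out, and the hypothalamus libraries above 2000 RPM of liver transcripts left out. Ranges over 19 alternatives include the fits that leave out a library.

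Named genes are the 20 largest called rises and the 15 largest falls (higher group's mean at least 50, separate groups, settled symbol), up to 4 called members per list, the 5 smallest p of each difference, and a panel of 16 genes (Nr3c1, Nr3c2, Hsd11b1, Crh, Avp, Oxt, Pomc, Npy, Agrp, Fos, Per1, Sgk1, Klf9, Hmox1, Nfkbia, Socs3). Some were left out for length. The comparison, the 37 lists and the rule were chosen with earlier results of these data known. Promoters are RefSeq's, build GRCr8. A gene with several starts counts as holding the motif if any of its windows does.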

Additional observations from a re-analysis of the deposited data

Results flagged for a closer look

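In a group of 4 libraries a value was singled out where its gap to the nearest other library took up a larger share of the group's whole range than Dixon's critical value at 95%. Chance alone singles out about 1 in 20 groups, and 17 of 174 groups were singled out, so the pattern of these values is given as a description. All values are normalized read counts. In air 2, the library rich in liver transcripts, the high values were 82.4 for Zbtb16, 136 for Ehhadh, 35.5 for Slc19a3 and 241 for Mt1. In ozone 18, the liver-rich library of the other group, Ehhadh was high at 553 and Bdnf at 116, and Aspa was low at 640 and Mertk at 338. Elsewhere Gab1 was high in air 1 at 170, Npy was high in air 3 at 39.5, Tsc22d3 was high in ozone 17 at 2456 and Ccnd1 was high in ozone 20 at 219. Low values were Cml5 at 119 and Znf740 at 1282 in air 3, Nrp1 at 481 in air 4, Gpd2 at 460 in ozone 19 and Hmox1 at 27.4 in ozone 20.

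The test of a difference between sham and ADREX rats singled out 20 genes, for which the log2 ozone effect in sham rats minus that in ADREX rats is given (limma, interaction term). It was 3.25 for Plin4, 2.96 for Pla2g3, 2.26 for Fkbp5, 2.12 for Cdkn1a, 1.96 for Gpd1, 1.92 for Gpatch4, 1.83 for Tnfrsf11a, 1.75 for Pnpla2 and 1.703 for LOC100911615. Smaller positive differences were 1.38 for Pex11a, 1.37 for Aspa, 1.35 for Lonrf3, 1.14 for Ston1, 0.96 for Svil, 0.87 for Gramd3, 0.68 for Sesn1 and 0.55 for Znf740. Rasgrp3, at −0.99, Opalin, at −0.71, and Ccnd1, at −0.71, had negative ones.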

How the results depend on the processing

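The count of 230 genes for ozone in the sham hypothalamus stayed within 1.5 times under pseudocounts, filters, scalings, edgeR, the compared groups alone and without the liver-rich libraries (164), but was 886 with sample weights and 412 with DESeq2, and 115 to 220 on leaving out a library. The count of 20 for the difference by operation was 90, 53 and 32 with sample weights, DESeq2 and without the liver-rich libraries, and 15 to 37 on leaving out a library. The difference by tissue, 0 genes with limma, gave 2 with DESeq2, 1 with the compared groups only and 2 without the liver-rich libraries. The causes were not tested. With the replicate number as a block (replicate block) it again gave 0. Numbers are shared only across tissues. Deviations from the group mean were correlated over genes between hypothalamus and brainstem. For same-numbered sham libraries r was −0.20 to 0.61, and the main fit did not treat them as pairs. Only hypothalamus air 1 and ozone 18 correlated best with their own number in the brainstem. Some numbers stood out alike in both tissues. Number 17 had the highest red blood cell sum of its group in hypothalamus (575 RPM) and brainstem (684 RPM). Air 2 and ozone 18 had the highest liver sums of their groups in hypothalamus (5320 and 3951 RPM) and brainstem (3229 and 6055 RPM). Whether a number marks a single rat was not tested, so the main fit may ignore a pairing. ADREX counts were 0 throughout. Of 1641 values for 87 named genes under alternatives, 1461 kept direction and side, 147 lost the call, 16 gained it and 17 changed sign, all 17 in uncalled genes. Without the liver-rich libraries the log2 difference of Hsd11b1 came to 0.0871 and that of Hmox1 to −0.00352, and Hmox1 came to −0.0662 with sample weights. Leaving out a library gave ranges of −0.153 to 0.158 for Hsd11b1, −0.0577 to 0.215 for Hmox1, −0.357 to 0.000677 for Crh, −0.475 to 0.0782 for Avp, −0.542 to 0.139 for Oxt, −0.279 to 0.144 for Pomc and −0.372 to 0.0102 for Npy. At totals of 6.48 to 8.75 M reads, genes with a mean under 10, Agrp among them, were not tested.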
